A study of Mus musculus with 23 samples.

Results

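The AngII effect in thoracic aorta was set against the AngII effect in mesenteric arteries, transcript by transcript, on 17 of the 23 arrays of a study of mouse blood vessels. The 17 were taken by their labels alone and are all arrays of these vessels. All mice were male C57BL/6J, and no group carried a modified gene. The AngII groups received angiotensin II under the skin at 490 ng/kg/min for 14 days, begun at 12 weeks of age, and the Sham groups received vehicle in the same way. There were 3 thoracic AngII, 3 thoracic Sham, 6 mesenteric AngII and 5 mesenteric Sham arrays, each hybridised with RNA of 2 pooled vessels of the same kind and treatment. The remaining 6 arrays were of abdominal aorta and entered only the shared normalization, the filter on detected transcripts and the estimate of the spread, except in the last comparison. A mouse could give several vessels, and the paper reports fewer mice than the vessels that were pooled. If the vessels of a kind came from different mice, some arrays of different vessels share mice. The labels do not say which, the fit did not use such links, and p-values measure the spread between pools.

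Angiotensin II acts through AT1 receptors on smooth muscle, endothelium and adventitial cells, constricts arteries, and with long infusion leads to hypertension, wall thickening and deposition of matrix. The thoracic aorta is an elastic conduit vessel that takes up the pressure wave of each heartbeat, with a wall of elastic lamellae, smooth muscle and a collagen-rich adventitia. Mesenteric arteries are muscular arteries of the gut with few elastic lamellae, and their tone contributes to vascular resistance.

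Signals are given on the log2 scale, on which a difference of 1 is a doubling, after background correction and normalization of all 23 arrays together. A transcript counted as detected at a detection p under 0.01, which 17560 to 18657 transcripts reached on the 17 arrays. Of 45281 transcripts on the array, 20585 detected on at least 3 arrays were tested, and they represent 10955 named genes, each by its brightest probe. The interaction is the AngII minus Sham difference in thoracic aorta minus the AngII minus Sham difference in mesenteric arteries. A positive interaction therefore means an AngII effect that was more positive in thoracic aorta. Smooth muscle contractile genes, the defining genes of arterial muscle, had a mean log2 signal between 10.43 and 11.31 on every one of the 17 arrays. That range does not by itself identify the vessel. Markers of endothelium averaged 8.62 to 8.93 on thoracic arrays and 10.34 to 10.66 on mesenteric arrays. Arrays of the 2 vessels thus differed, but the vessel labels were not tested. On 3 mesenteric arrays, 2 of AngII and 1 of Sham, markers of pancreas had mean log2 signals of 13.93, 12.38 and 13.94, while the other mesenteric arrays reached at most 8.43. No marker of pancreas passed the interaction test, which could hardly call genes that vary so widely. Their mean signal had an SD of 3.47 among mesenteric AngII arrays and 3.57 among mesenteric Sham arrays. The median interaction of these markers was -0.84.

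AngII effects differed between the vessels for 2353 of 20585 transcripts (11.4%; limma moderated test, adjusted p under 0.05), and 5382 had an unadjusted p under 0.05. The interaction was more positive in thoracic aorta for 1120 and more negative for 1233. Without the 3 arrays rich in pancreatic transcripts, 2058 transcripts differed, 1000 more positive and 1058 more negative. Without thoracic AngII array 3, 1607 differed, 817 more positive and 790 more negative. By gene, 762 were more positive (6.96% of 10955) and 612 more negative (5.59%), and the median interaction over all genes was 0.00. The AngII effect was larger in thoracic aorta for 2040 of the 2353 (86.7%) and larger in mesenteric arteries for 313 (162 without thoracic Sham array 1). Over all transcripts tested the median absolute effect was also larger in thoracic aorta, 0.17 against 0.10 in mesenteric arteries. The share with a larger thoracic effect was not counted over all transcripts. Among the transcripts with a positive interaction the median AngII effect was 0.63 in thoracic aorta and -0.09 in mesenteric arteries, and among those with a negative interaction it was -0.44 in thoracic aorta and 0.15 in mesenteric arteries. These medians follow in part from choosing transcripts by the difference between the vessels. Over all transcripts tested the medians were -0.02 in thoracic aorta and -0.004 in mesenteric arteries.

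Sizes depended on how the signals were processed. On the deposited log2 values, normalized otherwise by the authors, 44 of the 122 called interactions among the genes examined by name were over 1.5 times smaller and 0 over 1.5 times larger, and all 122 kept their sign. For genes whose interaction shrank by over 2 times, the value on the deposited log2 values stands beside the gene, except for Gpr176 and Postn, whose interactions are not given. It shrank by over 1.5 but under 2 times for Cenpa, Ccn4, Crebbp, Ear3, Fosb, Fst, Map3k20, Piezo1, Piezo2, Robo4, S100a4, Sgpl1, Tnfrsf22 and Tnnt1.

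The 2353 transcripts were divided by whether the AngII effect in each vessel had an unadjusted p under 0.05. The thoracic effect alone did so for 1497 transcripts (63.6%), and the mesenteric effect alone for 223 (9.48%). The effects ran opposite ways, each at an unadjusted p under 0.05, for 572 transcripts, which is 2.78% of those tested and 24.3% of those with a differing effect. Both effects had the same sign and the thoracic one was larger for 61 transcripts, and the reverse, the same sign with a larger mesenteric effect, was seen for 0. On all 17 arrays 1849 of the 2353 transcripts were detected, 122 were detected on no mesenteric array and 26 on no thoracic array. For the 122 and the 26 the fitted interaction rests on background in the vessel without detection. The fit took a common spread of all groups for each transcript, so the standard errors follow the numbers of arrays. Their median was 0.10 for the mesenteric effect and 0.13 for the thoracic effect, which does not compare the spread within the vessels. The plot of the effects by gene places the coloured genes mainly along the thoracic axis and in the quadrants of opposite sign.

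**Figure D1:**
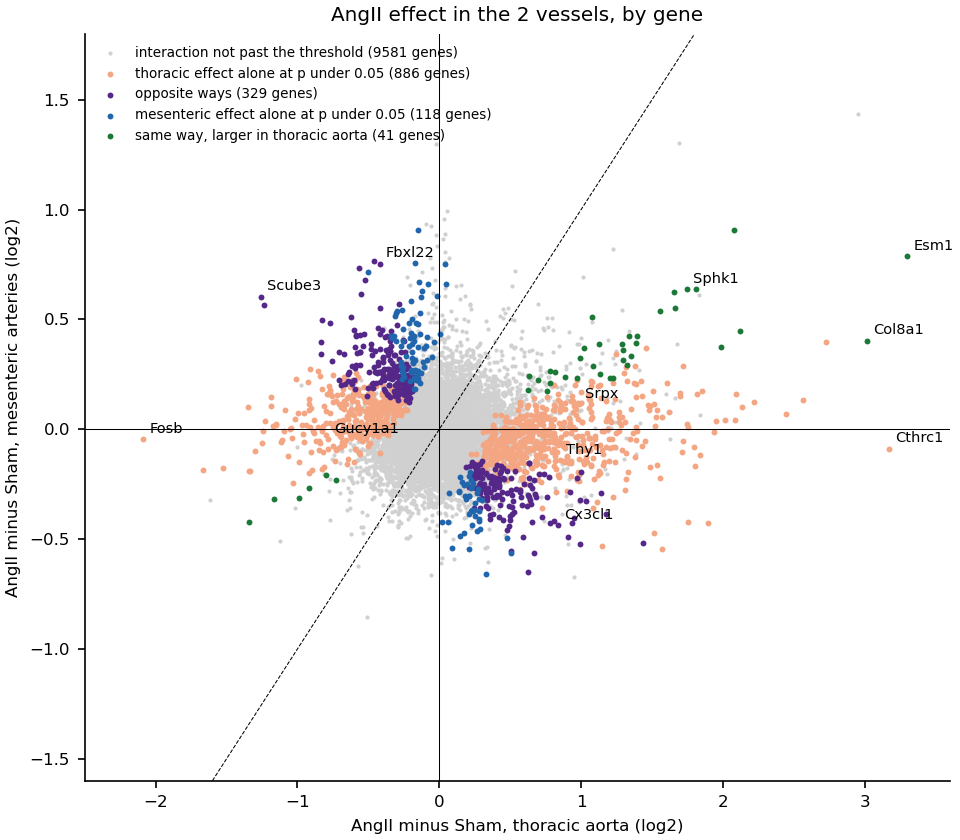
AngII minus Sham in thoracic aorta (x axis, log2) against AngII minus Sham in mesenteric arteries (y axis, log2), with 1 point per gene tested. Colours mark the classes of the 1374 genes with a differing effect, 886 with the thoracic effect alone at p under 0.05, 329 opposite, 118 with the mesenteric effect alone and 41 the same way, and the dashed line marks equal effects.

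Sphingosine kinase 1, encoded by Sphk1, makes sphingosine-1-phosphate, a lipid mediator that acts through its own receptors on smooth muscle and endothelium. Sphk1 had log2 signals of 8.92, 9.12 and 8.61 in thoracic AngII arrays, against 7.06, 7.11 and 7.24 in thoracic Sham arrays. Sphk1 lay between 7.56 and 8.30 (median 7.83) in mesenteric AngII arrays, against 7.18, 7.04, 7.05, 7.47 and 7.32 in mesenteric Sham arrays. Every AngII array was above every Sham array of its vessel, and the Sham levels of the vessels lay close together. Sphk1 rose by 1.75 ± 0.16 (log2, SE) in thoracic aorta, a 3.36-fold change, and by 0.64 ± 0.12 in mesenteric arteries, a 1.56-fold change, and the interaction was 1.11 ± 0.20 (limma adjusted p = 0.00094).

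Of 19 measured genes of sphingosine-1-phosphate metabolism and its receptors, Sphk1 included, 5 had a more positive interaction and 0 a more negative one. Over all genes the shares were 6.96% and 5.59%, and the median interaction of the list was 0.15. In thoracic aorta 5 genes of this list rose and 0 fell, beside 8.92% of all genes that rose and 6.87% that fell there. In mesenteric arteries 1 rose, beside 1.3% of all genes that rose and 0.502% that fell. S1pr2, a receptor for sphingosine-1-phosphate, had an interaction of 0.49 (adjusted p = 0.0062), Plpp1, a phosphatase that removes extracellular lipid phosphates, of 0.46 (adjusted p = 0.015), and Sgpl1, the lyase that ends the pathway, of 0.65 (adjusted p = 0.020). The call of Sgpl1 was lost without thoracic Sham array 2 (adjusted p = 0.055). Sphk2, the second sphingosine kinase, had effects of -0.27 in thoracic aorta and -0.08 in mesenteric arteries and an interaction of -0.18 ± 0.12 (adjusted p = 0.38).

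The promoter of Sphk1 is shown because it holds a match to the AP-1 motif TGANTCA, the site of Fos and Jun dimers. The window has 250 bases before and 50 bases after the start of transcription, from RefSeq on GRCm38.p6, and is the one of 5 Sphk1 windows in that table with the most matches. It lies on the plus strand at chr11:116531587-116531886, and capitals mark the match, which begins 50 bases before the start.
Sphk1: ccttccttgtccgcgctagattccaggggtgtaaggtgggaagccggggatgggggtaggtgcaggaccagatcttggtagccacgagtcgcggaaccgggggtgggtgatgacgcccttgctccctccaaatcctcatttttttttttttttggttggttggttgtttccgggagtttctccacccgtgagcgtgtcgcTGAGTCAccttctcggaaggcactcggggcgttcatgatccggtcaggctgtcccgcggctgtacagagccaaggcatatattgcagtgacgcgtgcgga
On either strand TGANTCA was present in at least 1 promoter of 8.97% of the genes in the table, 6.39% of the genes tested, 10.5% of the genes with a more positive interaction and 6.33% of those with a more negative one. These shares are descriptions and no test was made.

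Srpx encodes a secreted protein with sushi repeats, and its relative Srpx2 a ligand of the urokinase receptor. Srpx had log2 signals of 8.78, 8.83 and 9.03 in thoracic AngII arrays, against 7.84, 7.94 and 7.90 in thoracic Sham arrays. Srpx lay between 9.17 and 9.43 (median 9.36) in mesenteric AngII arrays, against 9.02, 9.35, 9.20, 9.27 and 9.29 in mesenteric Sham arrays. The thoracic groups did not overlap, the mesenteric groups did, and the thoracic Sham arrays were the lowest of all. Srpx rose by 0.98 ± 0.10 in thoracic aorta and had an effect of 0.12 ± 0.07 in mesenteric arteries, and the interaction was 0.87 ± 0.12 (adjusted p = 8.7e-05, 2 of 2 probes called).

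Srpx2 differed more between the vessels than Srpx. It had 10.30, 10.30 and 10.48 in thoracic AngII arrays, against 8.44, 8.91 and 8.63 in thoracic Sham arrays. Srpx2 lay between 8.54 and 8.69 (median 8.68) in mesenteric AngII arrays, against 8.46, 8.32, 8.38, 8.73 and 8.52 in mesenteric Sham arrays. Only the thoracic AngII arrays stood apart, and the interaction was 1.53 ± 0.14 (adjusted p = 8.1e-07, 3 of 3 probes). The Srpx promoter, shown as the contrast to that of Sphk1, held neither TGANTCA nor the CArG box described below. It lies on the minus strand at chrX:10117591-10117890.
Srpx: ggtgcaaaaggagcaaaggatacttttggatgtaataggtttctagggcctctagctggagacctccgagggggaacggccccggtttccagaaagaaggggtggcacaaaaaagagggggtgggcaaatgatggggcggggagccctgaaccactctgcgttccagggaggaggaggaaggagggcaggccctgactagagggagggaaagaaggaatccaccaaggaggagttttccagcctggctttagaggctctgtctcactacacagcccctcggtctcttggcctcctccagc

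Soluble guanylate cyclase is the receptor of nitric oxide in smooth muscle and consists of an alpha subunit, encoded here by Gucy1a1, and the beta subunit encoded by Gucy1b1. Gucy1a1 had log2 signals of 10.87, 11.04 and 11.19 in thoracic AngII arrays, against 11.68, 11.88 and 11.89 in thoracic Sham arrays. Gucy1a1 lay between 10.85 and 11.60 (median 11.22) in mesenteric AngII arrays, against 11.17, 11.42, 11.21, 11.35 and 11.22 in mesenteric Sham arrays. Gucy1a1 fell by 0.78 ± 0.17 in thoracic aorta, to about the mesenteric level, while the mesenteric groups overlapped (effect -0.04 ± 0.13). Its interaction was -0.74 ± 0.22 (adjusted p = 0.029), negative for 4 of 4 probes and called for 3. The call was lost under 5 of 32 alternatives, 4 of which left out 1 thoracic array, with an adjusted p of up to 0.084.

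Gucy1b1 had 8.59, 8.64 and 8.38 in thoracic AngII arrays, against 9.10, 9.27 and 9.26 in thoracic Sham arrays. Gucy1b1 lay between 7.39 and 8.14 (median 7.64) in mesenteric AngII arrays, against 7.51, 7.87, 7.74, 7.22 and 7.64 in mesenteric Sham arrays. Its interaction was -0.76 ± 0.20 (adjusted p = 0.015), and without thoracic AngII array 3 the adjusted p was 0.053. The promoter of Gucy1a1, on the minus strand at chr3:82145601-82145900, is shown beside those above as that of the gene that fell. This window, the first of 2, held neither motif.
Gucy1a1: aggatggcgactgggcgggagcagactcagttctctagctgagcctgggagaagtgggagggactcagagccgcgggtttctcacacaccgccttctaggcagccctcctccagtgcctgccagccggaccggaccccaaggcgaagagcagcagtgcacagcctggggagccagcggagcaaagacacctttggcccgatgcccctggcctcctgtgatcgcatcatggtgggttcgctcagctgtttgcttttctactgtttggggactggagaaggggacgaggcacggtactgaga

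Downstream of guanylate cyclase, cyclic GMP activates the kinase encoded by Prkg1, which relaxes smooth muscle through myosin phosphatase and the calcium-release inhibitor encoded by Mrvi1, and phosphodiesterases end the signal. Of 26 measured genes of nitric oxide and cyclic GMP signalling, 6 had a more negative interaction and 3 a more positive one. Over all genes the shares were 5.59% and 6.96%. Ppp1r12a, the targeting subunit of myosin phosphatase, had 10.42, 10.77 and 10.51 in thoracic AngII arrays, against 11.51, 11.70 and 11.48 in thoracic Sham arrays. Ppp1r12a lay between 11.02 and 11.69 (median 11.28) in mesenteric AngII arrays, against 11.19, 11.37, 11.22, 11.13 and 11.17 in mesenteric Sham arrays. Ppp1r12a fell in thoracic aorta, with an interaction of -1.08 ± 0.17 (adjusted p = 0.00030), and the mesenteric groups overlapped.

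The effector genes did not all take the same course in the vessels. Mrvi1 rose by 0.41 in mesenteric arteries, with a thoracic effect of -0.26 (interaction -0.66, adjusted p = 0.0049). Prkg1 had effects of -0.30 in thoracic aorta and 0.24 in mesenteric arteries (interaction -0.54, adjusted p = 0.020, lost without any of 4 thoracic arrays). Pde5a, the phosphodiesterase specific for cyclic GMP, fell by 0.68 in thoracic aorta (interaction -0.72, adjusted p = 0.016). Pde1b, which calcium and calmodulin activate, rose in both vessels, by 1.02 in thoracic aorta and 0.37 in mesenteric arteries (interaction 0.65, adjusted p = 0.0035). The interaction of Pde1b was 0.27 on the deposited log2 values (adjusted p = 0.046), and its call was lost there with the replicate number as a block (adjusted p = 0.050).

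Thy1 encodes a surface glycoprotein of fibroblasts, T cells and nerve. It had log2 signals of 10.24, 10.03 and 10.32 in thoracic AngII arrays, against 9.33, 9.53 and 9.18 in thoracic Sham arrays. Thy1 lay between 9.41 and 10.03 (median 9.56) in mesenteric AngII arrays, against 9.52, 10.04, 10.02, 9.82 and 9.33 in mesenteric Sham arrays. Thy1 rose by 0.85 ± 0.20 in thoracic aorta, the mesenteric groups overlapped with an effect of -0.14 ± 0.15, and the interaction was 0.99 ± 0.25 (adjusted p = 0.012).

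**Figure D2:**
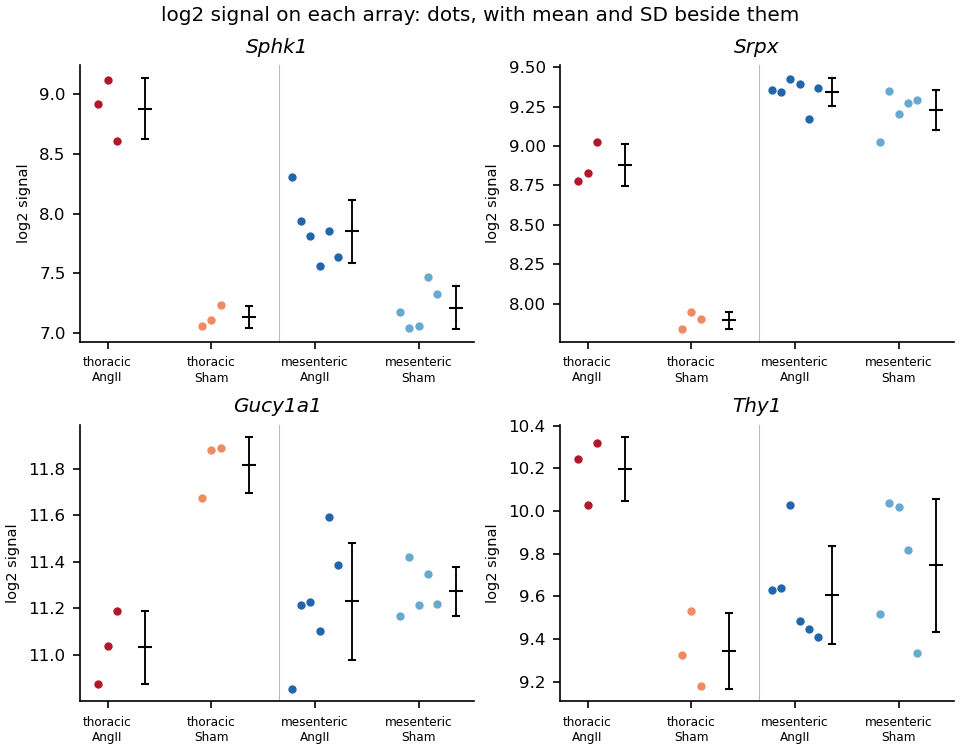
log2 signal of Sphk1, Srpx, Gucy1a1 and Thy1 on each of the 17 arrays (y axes, 1 dot per array, with the mean and SD beside the dots), by vessel and treatment. The AngII and Sham arrays of thoracic aorta are apart in all 4 genes, and those of mesenteric arteries only in Sphk1.

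The smooth muscle contractile genes had negative interactions more often than any other list measured. Of 28 measured, 15 had a more negative interaction and 0 a more positive one, beside 5.59% and 6.96% of all genes. The median interaction of the list was -0.57. In thoracic aorta 9 fell and 0 rose, and in mesenteric arteries 4 rose and 0 fell, with median effects of -0.32 in thoracic aorta and 0.20 in mesenteric arteries. The effects of 9 of the 28 ran opposite ways, where 3% of all genes did. The mean log2 signal of the list was 10.96 ± 0.03 in thoracic AngII arrays and 11.29 ± 0.02 in thoracic Sham arrays (SD, n = 3 each). It was 10.82 ± 0.12 in mesenteric AngII arrays (n = 6) and 10.58 ± 0.11 in mesenteric Sham arrays (n = 5). The thoracic level was thus above the mesenteric one in both treatments, and the gap was narrower with AngII.

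Among these genes Fbxl22, an F-box protein of muscle sarcomeres and smooth muscle, had the most negative interaction. It had log2 signals of 9.03, 8.86 and 9.04 in thoracic AngII arrays, against 9.53, 9.32 and 9.34 in thoracic Sham arrays. Fbxl22 lay between 8.64 and 9.06 (median 8.95) in mesenteric AngII arrays, against 8.27, 8.11, 8.10, 8.25 and 8.09 in mesenteric Sham arrays. AngII and Sham arrays did not overlap in either vessel: Fbxl22 fell by 0.42 ± 0.12 in thoracic aorta and rose by 0.75 ± 0.09 in mesenteric arteries (interaction -1.17 ± 0.15, adjusted p = 3.3e-05).

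Actg2, the gamma actin of smooth muscle, behaved in the same way. It had 11.76, 11.68 and 11.75 in thoracic AngII arrays, against 12.06, 12.19 and 12.20 in thoracic Sham arrays. Actg2 lay between 12.69 and 13.05 (median 12.86) in mesenteric AngII arrays, against 12.35, 12.67, 12.24, 12.62 and 12.28 in mesenteric Sham arrays. Again neither vessel showed an overlap, with effects of -0.42 in thoracic aorta and 0.43 in mesenteric arteries (interaction -0.85 ± 0.16, adjusted p = 0.0011).

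Des, the intermediate filament desmin, rose by 0.44 in mesenteric arteries (adjusted p = 0.018), with a thoracic effect of -0.34. Synpo2, an actin-bundling protein, fell by 0.59 in thoracic aorta (interaction -1.02, adjusted p = 0.0021, and -0.39 on the deposited log2 values). Srf, the transcription factor that binds CArG boxes, fell by 0.57 there (interaction -0.75, adjusted p = 0.0063), Pdlim7, a protein of actin filaments, by 0.48 and Myh11, the smooth muscle myosin heavy chain, by 0.52. Itga8, the alpha 8 integrin, fell by 0.91 in thoracic aorta and had a mesenteric effect of 0.01. Cnn1, calponin, had effects of -0.36 in thoracic aorta and 0.34 in mesenteric arteries, neither past the threshold alone (adjusted p = 0.067 and 0.065), and an interaction of -0.70 (adjusted p = 0.0071, and -0.30 on the deposited log2 values).

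Acta2, the alpha actin of smooth muscle, did not pass the test. It had an interaction of -0.06 ± 0.11 (95% interval -0.29 to 0.16), with effects of -0.02 in thoracic aorta and 0.04 in mesenteric arteries, but the interaction was -0.26 on the deposited log2 values (adjusted p = 0.10) and -0.31 at its lowest among the alternatives. Tagln, transgelin, rose by 0.33 in mesenteric arteries, had a thoracic effect of 0.06 and an interaction of -0.27 (adjusted p = 0.19). In bulk tissue a smaller share of muscle cells and less RNA per muscle cell cannot be told apart, here and for the other lists. The mean level of other cells' markers moved the other way in thoracic aorta, without overlap: macrophage markers lay at 8.36 to 8.98 with AngII and 7.89 to 8.23 with Sham, fibroblast markers at 9.98 to 10.15 with AngII and 9.68 to 9.74 with Sham, and white adipocyte markers at 8.24 to 8.52 with AngII and 7.46 to 8.03 with Sham. In mesenteric arteries, where 4 contractile genes rose, macrophage markers averaged 9.42 with AngII and 9.41 with Sham, and fibroblast markers 10.76 with both. White adipocyte markers averaged 9.37 with AngII and 9.53 with Sham there, and endothelial markers 10.44 with AngII and 10.60 with Sham. In thoracic aorta endothelial markers lay at 8.87 to 8.93 with AngII and 8.62 to 8.78 with Sham. The part of these markers in the contractile changes was not tested.

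**Figure D3:**
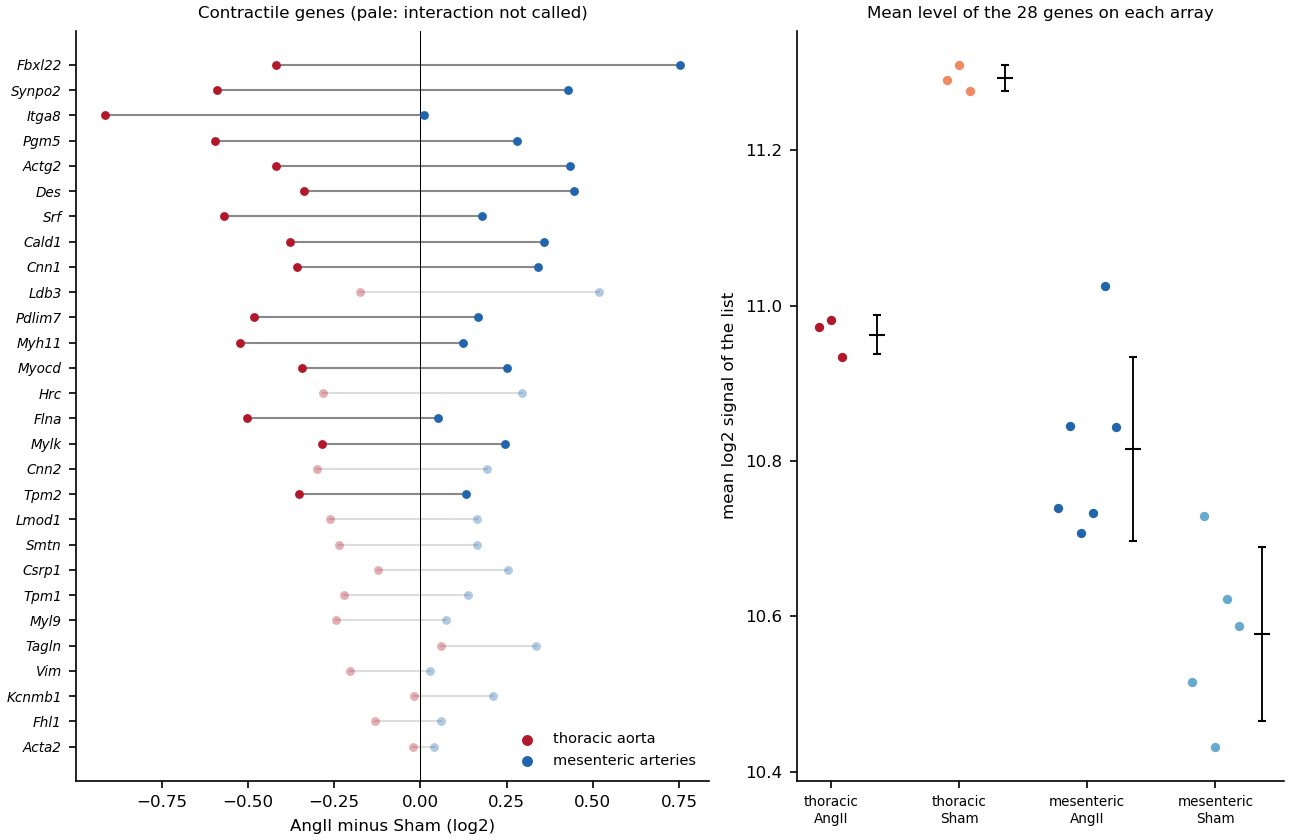
Left, AngII minus Sham (x axis, log2) of the 28 contractile genes in thoracic aorta and in mesenteric arteries, ordered by interaction, with pale points where the interaction was not called. Right, the mean log2 signal of the 28 genes on each array with the group mean and SD, where thoracic AngII arrays lie below thoracic Sham arrays and mesenteric AngII arrays, by their mean, above mesenteric Sham arrays.

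Promoters of Fbxl22 and Srf are shown because each holds a CArG box, the motif bound by serum response factor, a switch for contractile genes. The Fbxl22 window is on the minus strand at chr9:66514544-66514843 and the Srf window on the minus strand at chr17:46556113-46556412 (RefSeq, GRCm38.p6). Capitals mark the CArG boxes, 1 in Fbxl22 that begins 222 bases before the start and 2 in Srf that begin 82 and 62 bases before it.
Fbxl22: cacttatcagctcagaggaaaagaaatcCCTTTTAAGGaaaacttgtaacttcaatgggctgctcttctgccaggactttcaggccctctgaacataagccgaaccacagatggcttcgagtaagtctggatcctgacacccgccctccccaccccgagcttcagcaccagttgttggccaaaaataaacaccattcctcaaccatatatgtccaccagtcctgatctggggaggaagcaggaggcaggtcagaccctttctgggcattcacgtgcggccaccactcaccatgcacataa
Srf: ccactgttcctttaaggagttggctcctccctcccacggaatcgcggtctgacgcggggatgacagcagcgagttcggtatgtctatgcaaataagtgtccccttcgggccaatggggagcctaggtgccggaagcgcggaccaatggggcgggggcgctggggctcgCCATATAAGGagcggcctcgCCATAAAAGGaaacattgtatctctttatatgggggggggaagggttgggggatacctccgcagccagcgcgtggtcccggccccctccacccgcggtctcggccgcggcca
A CArG box was present in such a window of 6 of 24 contractile genes with a promoter entry (25%), beside 1.81% of all genes in the table. Of the 12 that also had a more negative interaction, 2 did. Both strands were searched, and no match says only that the motif is not in the window.

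Among genes of the extracellular matrix, more members of each list passed in the positive direction than in the negative. Of 24 measured fibrillar collagens and genes of their assembly, 12 had a more positive interaction and 0 a more negative one. With only transcripts detected on 3 arrays of each vessel, 11 had a more positive interaction. The median interaction was 0.43, and 16 of the 24 rose in thoracic aorta and 2 in mesenteric arteries, beside 6.96% of all genes with a more positive interaction, 8.92% that rose in thoracic aorta and 1.3% in mesenteric arteries. Col1a1, a chain of collagen I, had log2 signals of 12.43, 12.26 and 12.41 in thoracic AngII arrays, against 11.01, 11.15 and 10.82 in thoracic Sham arrays. Col1a1 lay between 10.87 and 11.40 (median 11.11) in mesenteric AngII arrays, against 10.71, 10.98, 11.03, 10.96 and 10.87 in mesenteric Sham arrays. Only the thoracic groups were apart, and the interaction was 1.17 ± 0.18 (adjusted p = 0.00027).

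Col3a1, the chain of collagen III, rose by 1.51 in thoracic aorta with an interaction of 1.40 (adjusted p = 0.0049). Fn1, fibronectin, rose in both vessels, by 1.13 in thoracic aorta and by 0.39 in mesenteric arteries (interaction 0.74, adjusted p = 0.0058; 1 of 4 probes called). The probe for Postn, periostin, was detected on no mesenteric array, and on the 6 thoracic arrays it rose by 0.77.

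Among 29 matricellular proteins and proteases of the matrix, 10 had a more positive interaction and 1 a more negative one. Cthrc1, a secreted protein of injured arteries, had 7.75, 6.88 and 7.88 in thoracic AngII arrays and was not detected in thoracic Sham arrays, which makes it at least 5.65-fold higher with AngII. Cthrc1 lay between 4.92 and 5.37 (median 5.02) in mesenteric AngII arrays, against 5.12, 5.12, 5.03, 5.30 and 5.27 in mesenteric Sham arrays. The fitted interaction, which depends on the background where the gene was not detected, was 3.26 ± 0.26 (adjusted p = 9.3e-08), and 1.17 on the deposited log2 values.

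Mmp2, a gelatinase, had 12.50, 12.36 and 12.58 in thoracic AngII arrays, against 10.94, 11.01 and 10.86 in thoracic Sham arrays. Mmp2 lay between 11.97 and 12.39 (median 12.26) in mesenteric AngII arrays, against 12.11, 12.16, 12.04, 12.17 and 12.22 in mesenteric Sham arrays. With AngII the thoracic aorta reached the mesenteric level, and the interaction was 1.45 ± 0.14 (adjusted p = 1.2e-06). Lum, the proteoglycan lumican, did the same: 11.92, 11.87 and 12.12 in thoracic AngII arrays, against 10.45, 10.40 and 10.63 in thoracic Sham arrays, while mesenteric AngII arrays lay between 11.87 and 12.34 and mesenteric Sham arrays between 11.80 and 12.31. The interaction of Lum was 1.39 ± 0.17 (adjusted p = 1.5e-05).

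Some matrix genes rose in both vessels, less in mesenteric arteries. Comp, cartilage oligomeric matrix protein, rose by 1.56 in thoracic aorta and 0.54 in mesenteric arteries (interaction 1.02, adjusted p = 0.0034). Ccn4, a Wnt-induced secreted protein, rose by 1.39 in thoracic aorta and 0.39 in mesenteric arteries (adjusted p of the interaction = 0.00014). Thbs1, thrombospondin 1, rose by 1.81 in thoracic aorta and 0.64 in mesenteric arteries (interaction 1.17, adjusted p = 0.0046), and its call was lost on the deposited log2 values (0.25, adjusted p = 0.25).

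Elastic fibre genes were divided. Of 17 measured, 6 had a more positive interaction and 1 a more negative one. Mfap2, a microfibril protein, rose by 0.97 in thoracic aorta (interaction 0.74, adjusted p = 0.0021), and Fbln2, fibulin 2, by 0.62 with a mesenteric effect of -0.30 (interaction 0.92, adjusted p = 0.00021). Ltbp4, which binds latent TGF-beta to microfibrils, fell by 0.92 in thoracic aorta (interaction -0.65, adjusted p = 0.013). Mfap4, a fibrinogen-like microfibril protein, rose in both vessels. It had 12.55, 12.74 and 12.79 in thoracic AngII arrays, against 12.13, 12.14 and 12.09 in thoracic Sham arrays, and lay between 11.46 and 11.79 in mesenteric AngII arrays, against 10.89, 11.43, 11.03, 11.11 and 11.31 in mesenteric Sham arrays. Its interaction was 0.16 ± 0.15, with a 95% interval of -0.14 to 0.46.

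Of 21 genes of basement membrane and short-chain collagens, 5 had a more positive interaction and 1 a more negative one. Col8a1, a network collagen of vessel walls, had 10.44, 9.64 and 10.28 in thoracic AngII arrays, against 7.12, 7.07 and 7.13 in thoracic Sham arrays. Col8a1 lay between 10.16 and 10.58 (median 10.24) in mesenteric AngII arrays, against 10.04, 9.93, 9.69, 9.93 and 9.95 in mesenteric Sham arrays. The thoracic AngII arrays reached the level that mesenteric arteries had already in Sham, and the interaction was 2.61 ± 0.21 (adjusted p = 9.3e-08). Nid1, nidogen, rose by 0.92 in thoracic aorta (interaction 1.21, adjusted p = 0.00082). Lama4, the laminin chain of vascular basement membranes, fell by 0.92 in thoracic aorta with an interaction of -1.03 (adjusted p = 9.8e-05, and -0.35 on the deposited log2 values), and a second probe of Lama4 had the other sign.

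Of the 329 opposite genes, 143 were higher with AngII in thoracic aorta and lower in mesenteric arteries, and 186 were the other way round. In 54 of the 329, AngII and Sham arrays overlapped in neither vessel, which was so for 122 of 10955 genes in all (1.11%). The opposite genes were chosen by p in both vessels on these arrays, so their larger share follows in part from the choice. For 47 opposite transcripts both vessel effects passed the adjusted threshold.

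Scube3, a secreted glycoprotein with EGF-like repeats, had the most negative interaction of these. It had log2 signals of 8.52, 8.44 and 8.27 in thoracic AngII arrays, against 9.59, 9.77 and 9.63 in thoracic Sham arrays. Scube3 lay between 6.48 and 7.10 (median 6.59) in mesenteric AngII arrays, against 6.18, 6.44, 5.87, 5.95 and 5.99 in mesenteric Sham arrays. It fell by 1.26 ± 0.15 in thoracic aorta and rose by 0.60 ± 0.11 in mesenteric arteries, with no overlap in either (interaction -1.86 ± 0.18, adjusted p = 1.3e-06, 3 of 3 probes).

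Angptl7, an angiopoietin-like secreted protein, fell by 1.24 in thoracic aorta, where it had 8.05, 8.29 and 8.65 with AngII, against 9.82, 9.63 and 9.25 with Sham. Angptl7 lay between 9.96 and 10.63 (median 10.34) in mesenteric AngII arrays, against 9.68, 9.77, 9.91, 10.32 and 9.19 in mesenteric Sham arrays, an effect of 0.56 (adjusted p = 0.073) with overlap. The interaction of Angptl7 was -1.80 ± 0.28 (adjusted p = 0.00023).

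Cx3cl1, the chemokine fractalkine, ran the other way. It had 8.02, 7.57 and 7.97 in thoracic AngII arrays, against 7.07, 6.92 and 7.07 in thoracic Sham arrays. Cx3cl1 lay between 8.52 and 8.98 (median 8.89) in mesenteric AngII arrays, against 9.56, 9.23, 9.17, 9.38 and 9.05 in mesenteric Sham arrays. It rose by 0.84 in thoracic aorta and fell by 0.44 in mesenteric arteries, with no overlap in either vessel (interaction 1.27 ± 0.17, adjusted p = 4.7e-05).

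Hspb6, a small heat shock protein of smooth muscle that takes part in relaxation, had 12.82, 12.76 and 12.60 in thoracic AngII arrays, against 13.18, 13.12 and 13.33 in thoracic Sham arrays. Hspb6 lay between 11.98 and 12.24 (median 12.09) in mesenteric AngII arrays, against 11.66, 11.72, 11.60, 11.79 and 11.88 in mesenteric Sham arrays. It fell by 0.48 in thoracic aorta and rose by 0.36 in mesenteric arteries (interaction -0.85 ± 0.12, adjusted p = 0.00013). Ramp1, the partner of the receptor for the dilator peptide CGRP, had 11.34, 11.38 and 11.27 in thoracic AngII arrays, against 11.66, 11.60 and 11.82 in thoracic Sham arrays. Ramp1 lay between 9.69 and 10.09 (median 9.89) in mesenteric AngII arrays, against 9.49, 9.55, 9.40, 9.61 and 9.52 in mesenteric Sham arrays. Neither gene overlapped between AngII and Sham in either vessel, and Ramp1 had an interaction of -0.72 ± 0.12 (adjusted p = 0.00046).

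**Figure D4:**
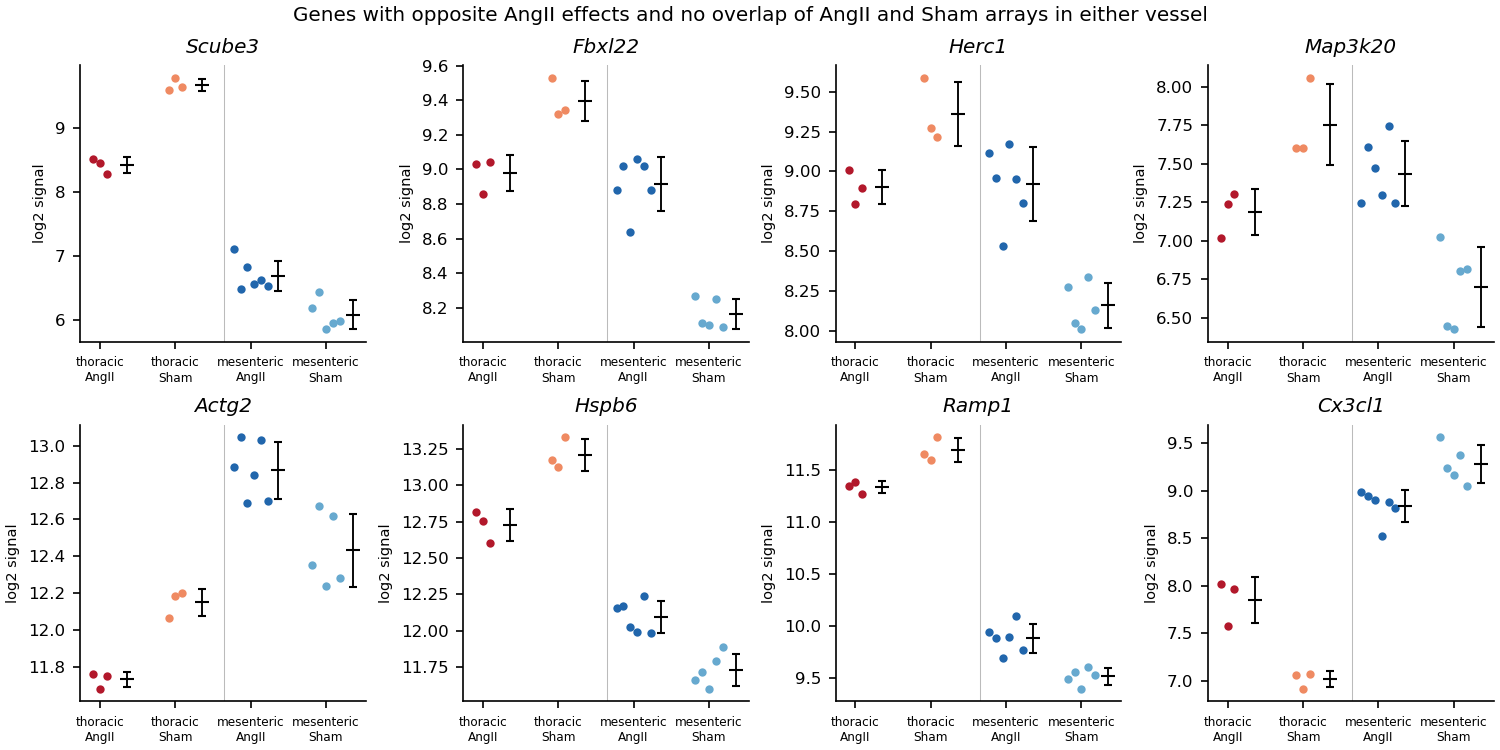
log2 signal on each array (y axes, 1 dot per array, with the mean and SD beside the dots) of 8 genes whose AngII effects ran opposite ways, by vessel and treatment. Scube3, Fbxl22, Herc1, Map3k20, Actg2, Hspb6 and Ramp1 are lower with AngII in thoracic aorta and higher in mesenteric arteries, and Cx3cl1 is the reverse.

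In the next opposite genes the mesenteric effect did not pass the adjusted threshold, and the mesenteric arrays overlapped. Vcam1, an adhesion molecule for leukocytes, had 10.02, 10.17 and 10.37 in thoracic AngII arrays, against 9.23, 9.37 and 9.16 in thoracic Sham arrays, and between 10.84 and 11.56 in mesenteric AngII arrays, against 11.70, 11.94, 11.46, 11.34 and 11.82 in mesenteric Sham arrays (interaction 1.36 ± 0.23, adjusted p = 0.00063). Dpt, dermatopontin of the adventitia, rose by 0.95 in thoracic aorta with a mesenteric effect of -0.40 (interaction 1.35, adjusted p = 8.9e-05). S100a4, a calcium-binding protein, rose by 1.17 in thoracic aorta with a mesenteric effect of -0.38 (interaction 1.56, adjusted p = 0.00015).

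Tnfrsf22, a decoy receptor for TRAIL, had an interaction of 1.36 (adjusted p = 5.9e-06), and Cnksr1, a scaffold of Ras signalling, of 1.43 (adjusted p = 2.3e-05, and 0.50 on the deposited log2 values), though Cnksr1 was detected on no mesenteric AngII array. Less certain were Acvr1c, an activin receptor-like kinase of fat cells (interaction 1.51, adjusted p = 0.021, lost under 4 of 31 alternatives), and Cdsn, corneodesmosin (1.40, adjusted p = 0.017, lost under 2 of 32), with 0.69 for Acvr1c and 0.61 for Cdsn on the deposited log2 values. Ear3 belongs to a family of near-identical eosinophil ribonucleases that one probe may not separate, and its interaction of 1.96 (adjusted p = 0.0012) is uncertain for that reason.

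Where the mesenteric effect was the larger one, the interaction was negative for 229 of 313 transcripts. Herc1, a large ubiquitin ligase, had 9.01, 8.80 and 8.90 in thoracic AngII arrays, against 9.59, 9.27 and 9.22 in thoracic Sham arrays. Herc1 lay between 8.53 and 9.17 (median 8.96) in mesenteric AngII arrays, against 8.27, 8.05, 8.01, 8.33 and 8.13 in mesenteric Sham arrays. It fell by 0.46 in thoracic aorta and rose by 0.76 in mesenteric arteries, with no overlap in either (interaction -1.22 ± 0.19, adjusted p = 0.00022). Map3k20, a stress-activated kinase, fell by 0.57 in thoracic aorta and rose by 0.73 in mesenteric arteries, also with no overlap (interaction -1.30, adjusted p = 0.00063; 2 of 4 probes called).

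Crebbp, a histone acetyltransferase, rose by 0.68 in mesenteric arteries with a thoracic effect of -0.52 (interaction -1.20, adjusted p = 0.0091). Syne2, a protein of the nuclear envelope, had effects of -0.55 in thoracic aorta and 0.62 in mesenteric arteries, neither past the threshold alone (interaction -1.17, adjusted p = 0.010). Ptprz1, a receptor phosphatase, had an interaction of -1.22 (adjusted p = 0.033) that was lost under 10 of 32 alternatives. In the other direction Aldh1a7, an aldehyde dehydrogenase, had an interaction of 1.27 (adjusted p = 0.018, lost under 2 of 32) and Pck1, an enzyme of glyceroneogenesis in fat, of 1.07 (adjusted p = 0.034, lost under 12 of 31), with 0.60 for Aldh1a7 and 0.32 for Pck1 on the deposited log2 values.

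Ion channels and calcium handling held 4 genes with a more positive and 4 with a more negative interaction, of 32 measured. Over all genes the shares were 6.96% and 5.59%. The more negative ones include Sln, for which the vessels could not be compared. Sln, sarcolipin, an inhibitor of the calcium pump of the sarcoplasmic reticulum, was not detected on any thoracic array. Sln lay between 8.24 and 8.71 (median 8.61) in mesenteric AngII arrays, against 7.68, 7.89, 7.84, 7.89 and 8.03 in mesenteric Sham arrays, a rise of 0.66 ± 0.08 with no overlap. No AngII effect could be measured for Sln in thoracic aorta, so its fitted interaction does not compare the vessels.

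Cacna2d1, an auxiliary subunit of voltage-gated calcium channels, also changed in mesenteric arteries. It had 10.44, 10.61 and 10.43 in thoracic AngII arrays, against 10.65, 10.58 and 10.68 in thoracic Sham arrays, and lay between 8.97 and 9.38 in mesenteric AngII arrays, against 8.69, 8.72, 8.51, 8.32 and 8.09 in mesenteric Sham arrays. Only the mesenteric groups were apart, with a rise of 0.67 (interaction -0.82, adjusted p = 0.0035; 1 of 3 probes called and 1 of the other sign).

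Abcc9, the sulfonylurea receptor of vascular potassium channels, fell by 0.43 in thoracic aorta (interaction -0.72, adjusted p = 0.0021). Both mechanosensitive channels were among those that rose there, Piezo2 by 1.05 (interaction 0.89, adjusted p = 0.0038) and Piezo1 by 0.51 (interaction 0.87, adjusted p = 0.010). Cacna1h, a T-type calcium channel, was detected in thoracic AngII arrays and not in thoracic Sham arrays, which makes it at least 1.74-fold higher there, and its interaction call (0.90, adjusted p = 0.0086) was lost on the deposited log2 values (0.22). Cnnm2, a protein of magnesium transport, rose by 0.65 in mesenteric arteries (adjusted p = 0.0066), and its interaction of -0.54 did not pass (adjusted p = 0.078).

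Among 17 measured receptors and mediators of constriction and dilation, 1 had a more positive interaction and 4 a more negative one. Over all genes the shares were 6.96% and 5.59%. Edn1, the precursor of endothelin-1, had log2 signals of 9.21, 8.26 and 8.86 in thoracic AngII arrays, against 10.12, 10.24 and 10.01 in thoracic Sham arrays. Edn1 lay between 10.24 and 10.78 (median 10.73) in mesenteric AngII arrays, against 10.69, 10.90, 10.27, 10.69 and 10.27 in mesenteric Sham arrays. Edn1 fell by 1.35 ± 0.19 in thoracic aorta and had a mesenteric effect of 0.10 ± 0.14 (interaction -1.45 ± 0.24, adjusted p = 0.00052). Ednrb, the endothelin B receptor, rose by 0.72 in thoracic aorta (interaction 0.96, adjusted p = 0.0071), with 2 of 3 probes of the same sign. Tbxa2r, the thromboxane receptor, fell by 0.42 there (interaction -0.64, adjusted p = 0.0089).

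In the angiotensin system and its feedback, 4 of 16 measured genes had a more positive interaction and 1 a more negative one. Over all genes the shares were 6.96% and 5.59%. Rcan1, an inhibitor of calcineurin that calcium signalling induces, had 10.51, 10.28 and 10.10 in thoracic AngII arrays, against 8.97, 9.26 and 8.98 in thoracic Sham arrays. Rcan1 lay between 9.09 and 9.59 (median 9.39) in mesenteric AngII arrays, against at most 9.31 in mesenteric Sham arrays. Rcan1 rose by 1.23 in thoracic aorta (interaction 1.01 ± 0.18, adjusted p = 0.00089), while Rcan2 fell by 0.59 there (interaction -0.82, adjusted p = 0.011). Agtr1a, the AT1a receptor, rose by 0.35 in thoracic aorta with a mesenteric effect of -0.21 (interaction 0.57, adjusted p = 0.013, and 0.27 on the deposited log2 values). Ace, which makes angiotensin II, rose by 0.57 in thoracic aorta (interaction 0.68, adjusted p = 0.0060; 1 of 3 probes called), and Anpep, a peptidase that degrades it further, by 0.60 (interaction 0.66, adjusted p = 0.0034).

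Of 20 immediate early transcription factors measured, 2 had a more positive and 3 a more negative interaction, with a median of -0.12. Over all genes the shares were 6.96% and 5.59%. Fosb had 6.55, 6.74 and 6.18 in thoracic AngII arrays, against 8.67, 8.18 and 8.90 in thoracic Sham arrays. Fosb lay between 5.82 and 8.08 (median 6.74) in mesenteric AngII arrays, against 6.68, 7.17, 7.22, 7.03 and 6.16 in mesenteric Sham arrays. It fell by 2.09 ± 0.38 in thoracic aorta with an interaction of -2.04 ± 0.47 (adjusted p = 0.0067), and the thoracic Sham arrays were the highest of all groups. Atf3 fell by 1.67 in thoracic aorta, with an interaction of -1.48 (adjusted p = 0.038) that was lost under 15 of 32 alternatives and was -0.68 on the deposited log2 values. Jund fell by 0.58 there (interaction -0.76, adjusted p = 0.0073), and Egr3 rose by 0.73 (interaction 1.13, adjusted p = 0.0079).

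Among genes with no mesenteric change at an unadjusted p under 0.05, those with the most positive interactions were of several kinds. Gpr176, an orphan receptor coupled to G proteins, had 7.62, 6.87 and 7.21 in thoracic AngII arrays and was detected in no thoracic Sham array and no mesenteric array, which makes it at least 4.68-fold higher with AngII in thoracic aorta. Diras2, a small GTPase of the Ras family, had 9.30, 8.91 and 9.41 in thoracic AngII arrays, against 6.41, 7.03 and 6.85 in thoracic Sham arrays (interaction 2.37 ± 0.29, adjusted p = 2.1e-05). Angptl1, an angiopoietin-like secreted protein, had 10.02, 10.31 and 10.60 in thoracic AngII arrays, against 8.05, 8.20 and 8.02 in thoracic Sham arrays (interaction 2.10 ± 0.23, adjusted p = 4.6e-06). In mesenteric arrays Diras2 lay between 5.46 and 6.58 with AngII and between 5.52 and 5.92 with Sham, and Angptl1 between 6.39 and 6.89 with AngII and between 6.00 and 6.69 with Sham.

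Slpi, a secreted protease inhibitor, had 6.22, 6.76 and 5.86 in thoracic AngII arrays and was not detected in thoracic Sham arrays (at least 2.42-fold higher), and its interaction of 2.18 (adjusted p = 0.014) was lost on the deposited log2 values (0.83, adjusted p = 0.18). Pon1, paraoxonase, rose by 1.57 in thoracic aorta (interaction 2.12, adjusted p = 0.0041). Upk3b, a marker of mesothelium, rose by 1.89 there (interaction 2.32, adjusted p = 0.00069, and 0.89 on the deposited log2 values). Mup2 and Mup6 (interactions 2.33 and 2.03) and Bcl2a1d (2.04) belong to families of near-identical genes, so the probes may not separate their members. On the deposited log2 values the interaction of Bcl2a1d was 0.86, and that of Mup6 was 1.002. Mup6 was detected on no mesenteric array, so its fitted interaction does not compare the vessels.

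Within the same class, with no mesenteric change at an unadjusted p under 0.05, the most negative interactions beside those of Fosb, Atf3 and Edn1 were these. Ppp1r1b, an inhibitor of protein phosphatase 1, had 4.98, 5.33 and 5.06 in thoracic AngII arrays, against 6.60, 6.79 and 6.57 in thoracic Sham arrays (interaction -1.35 ± 0.17, adjusted p = 2.6e-05, and -0.43 on the deposited log2 values). Ppp1r1b was dim, detected on every thoracic array and on 3 of 6 mesenteric AngII and 5 of 5 mesenteric Sham arrays. Bves, a membrane protein of muscle that binds cyclic AMP, had 7.67, 7.36 and 7.49 in thoracic AngII arrays, against 8.68, 8.64 and 8.77 in thoracic Sham arrays (interaction -1.34 ± 0.17, adjusted p = 3.6e-05). Bves lay between 7.11 and 7.66 in mesenteric AngII arrays, against between 7.05 and 7.24 in mesenteric Sham arrays. Tnnt1, the troponin T of slow muscle, had an interaction of -1.20, and Pkdcc, a secreted tyrosine kinase, of -1.27. Bmf, a proapoptotic protein, had -1.24 (-0.54 on the deposited log2 values), and Kcnc4, a potassium channel, had -1.23. The adjusted p-values of Tnnt1, Pkdcc, Bmf and Kcnc4 lay between 3.2e-05 and 0.0019 (limma). 2900055J20Rik was detected on no mesenteric array, so its fitted interaction of -1.29 does not compare the vessels.

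Among genes whose effects had the same sign in both vessels, each at an unadjusted p under 0.05, and were larger in thoracic aorta, Esm1, a proteoglycan of activated endothelium, had 9.51, 9.29 and 9.45 in thoracic AngII arrays, against 6.03, 6.02 and 6.32 in thoracic Sham arrays. Esm1 lay between 6.11 and 7.76 (median 6.99) in mesenteric AngII arrays, against 6.30, 6.35, 5.73, 6.53 and 5.88 in mesenteric Sham arrays (interaction 2.51 ± 0.38, adjusted p = 0.00021). Its mesenteric effect of 0.79 had an adjusted p of 0.069. Timp1, an inhibitor of matrix proteases, had 11.62, 11.07 and 11.42 in thoracic AngII arrays, against 9.34, 9.19 and 9.21 in thoracic Sham arrays (interaction 1.67 ± 0.28, adjusted p = 0.00055). Tnfrsf11b, osteoprotegerin, had an interaction of 1.61 (adjusted p = 7.9e-06), and Pbk, a mitotic kinase that rose in both vessels, of 1.17 (adjusted p = 0.031), which was lost under 9 of 31 alternatives and was 0.27 on the deposited log2 values.

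Of 27 chemokines, cytokines and adhesion molecules measured, 7 had a more positive interaction and 0 a more negative one, with a median of 0.66. Over all genes the shares were 6.96% and 5.59%. Ccl21a, a lymphatic chemokine with near-identical copies, had 9.26, 8.63 and 9.21 in thoracic AngII arrays, against 7.21, 7.53 and 7.11 in thoracic Sham arrays, and between 12.57 and 13.03 in mesenteric Sham arrays (interaction 1.74, adjusted p = 0.00050). Ccl5, a chemokine that attracts T cells, was detected in thoracic AngII arrays and not in thoracic Sham arrays, which makes it at least 2.02-fold higher there, and its fitted interaction of 1.44 (adjusted p = 0.0010) was 0.36 on the deposited log2 values (adjusted p = 0.040). Ccl9 rose by 0.99 in thoracic aorta (interaction 1.31, adjusted p = 0.00088) and Cxcl16 by 0.85 (interaction 0.76, adjusted p = 0.0019).

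Of 24 interferon-stimulated genes 9 had a more positive interaction, among them Rsad2 (1.24, adjusted p = 0.0059) and Usp18 (0.85, adjusted p = 0.0017), and 6 rose in thoracic aorta. On the deposited log2 values Rsad2 had 0.47 and Usp18 0.42. Of 30 cell cycle genes 11 had a more positive interaction, among them Cenpa, a centromere histone (1.10, adjusted p = 0.00066), and Kif23, a kinesin of cell division (0.80, adjusted p = 0.0011), and 20 rose in thoracic aorta and 2 in mesenteric arteries. Of all genes, 6.96% had a more positive interaction, 8.92% rose in thoracic aorta and 1.3% in mesenteric arteries.

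Markers of macrophages had a median interaction of 0.71. They were more positive in thoracic aorta for 10 of 21 genes and more negative for 0, beside 6.96% and 5.59% of all genes. Without thoracic AngII array 1 the count was 5, and without the 3 arrays rich in pancreatic transcripts 7. Examples are H2-Ab1, which presents antigen (interaction 1.38, adjusted p = 0.0023), Cd74, its chaperone (1.14, adjusted p = 0.0048), Trem2, a lipid receptor (1.24, adjusted p = 0.0060, and 0.44 on the deposited log2 values), and Lyz2, lysozyme (0.84, adjusted p = 0.0098). The mean log2 signal of the list was 8.75 ± 0.34 in thoracic AngII arrays and 8.05 ± 0.18 in thoracic Sham arrays, while it was 9.42 ± 0.14 in mesenteric AngII arrays and 9.41 ± 0.06 in mesenteric Sham arrays. Of 9 measured lymphocyte markers 1 passed, Cd52 (interaction 1.94, adjusted p = 0.00058), which other leukocytes express too.

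Markers of other tissues that could be in the dissected vessels were measured in the same way. White adipocyte markers passed for 3 of 15 genes, all more positive, among them Lpl, lipoprotein lipase (interaction 1.18, adjusted p = 0.0076), and their mean log2 signal was 8.24 to 8.52 in thoracic AngII arrays, 7.46 to 8.03 in thoracic Sham arrays, 8.85 to 9.77 in mesenteric AngII arrays and 9.29 to 9.94 in mesenteric Sham arrays. Brown adipocyte markers passed for 2 of 11, and their mean was 8.54 to 9.04 in thoracic AngII arrays and 7.81 to 8.75 in thoracic Sham arrays. Among them was Slc27a2 (1.26, adjusted p = 0.018, lost under 3 of 30 alternatives, and 0.50 on the deposited log2 values). Slc27a2 was detected on no mesenteric array, so its fitted interaction does not compare the vessels. Fibroblast markers passed for 5 of 18 and endothelial markers for 6 of 17, among them Robo4, an endothelial receptor (1.51, adjusted p = 0.00094). Mesothelial markers passed for 2 of 7, Upk3b and Upk1b (1.23, adjusted p = 0.017, lost without thoracic AngII array 2, and 0.38 on the deposited log2 values). Upk1b was detected in no thoracic Sham array.

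Each of these calls was more positive in thoracic aorta, a call that 6.96% of all genes had. Nerve markers passed for 0 of 6 genes, striated muscle for 0 of 8 and red blood cell for 0 of 4, lists too short for 0 calls to say much. Pancreas markers passed for 0 of 16. For pancreas markers, which varied widely between mesenteric arrays, this does not bound the difference between the vessels. For the matrix and inflammation genes above, the part of these markers in the result was not tested.

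Several lists held few or no calls, beside 6.96% of all genes called more positive and 5.59% more negative. Ribosomal proteins had 0 calls among 30 genes, respiratory chain subunits 1 of 28, fatty acid oxidation 1 of 28 and chaperones of the endoplasmic reticulum 1 of 25. Few calls do not mean equal effects, and the fatty acid oxidation list had a median interaction of 0.30. Of 24 genes of TGF-beta and BMP signalling 2 passed, Fst, the activin antagonist follistatin (interaction 1.54 ± 0.18, adjusted p = 9.7e-06), and Ski, a corepressor of Smad proteins (-0.54, adjusted p = 0.0052). Fst had 7.81, 7.58 and 7.87 in thoracic AngII arrays, against 6.52, 6.00 and 5.87 in thoracic Sham arrays, and between 7.01 and 7.21 in mesenteric AngII arrays, against 6.91 to 7.16 in mesenteric Sham arrays.

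Clock genes passed for 2 of 14, Bhlhe40 (1.32, adjusted p = 0.0014) and Per2 (-0.72, adjusted p = 0.014, lost without thoracic AngII array 3). Heat shock proteins passed for 3 of 21, all more negative, among them Hspb6 and Hspa1b (-0.97, adjusted p = 0.021, lost under 5 of 32 alternatives, and -0.40 on the deposited log2 values). Of 29 antioxidant genes 6 passed, among them Gpx3, a secreted glutathione peroxidase (1.26, adjusted p = 0.0018), and 2 glutathione transferases of opposite sign, Gstm5 (0.84, adjusted p = 0.00092) and Gstm1 (-0.59, adjusted p = 0.013), which are close in sequence and which one probe may not separate.

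**Figure D5:**
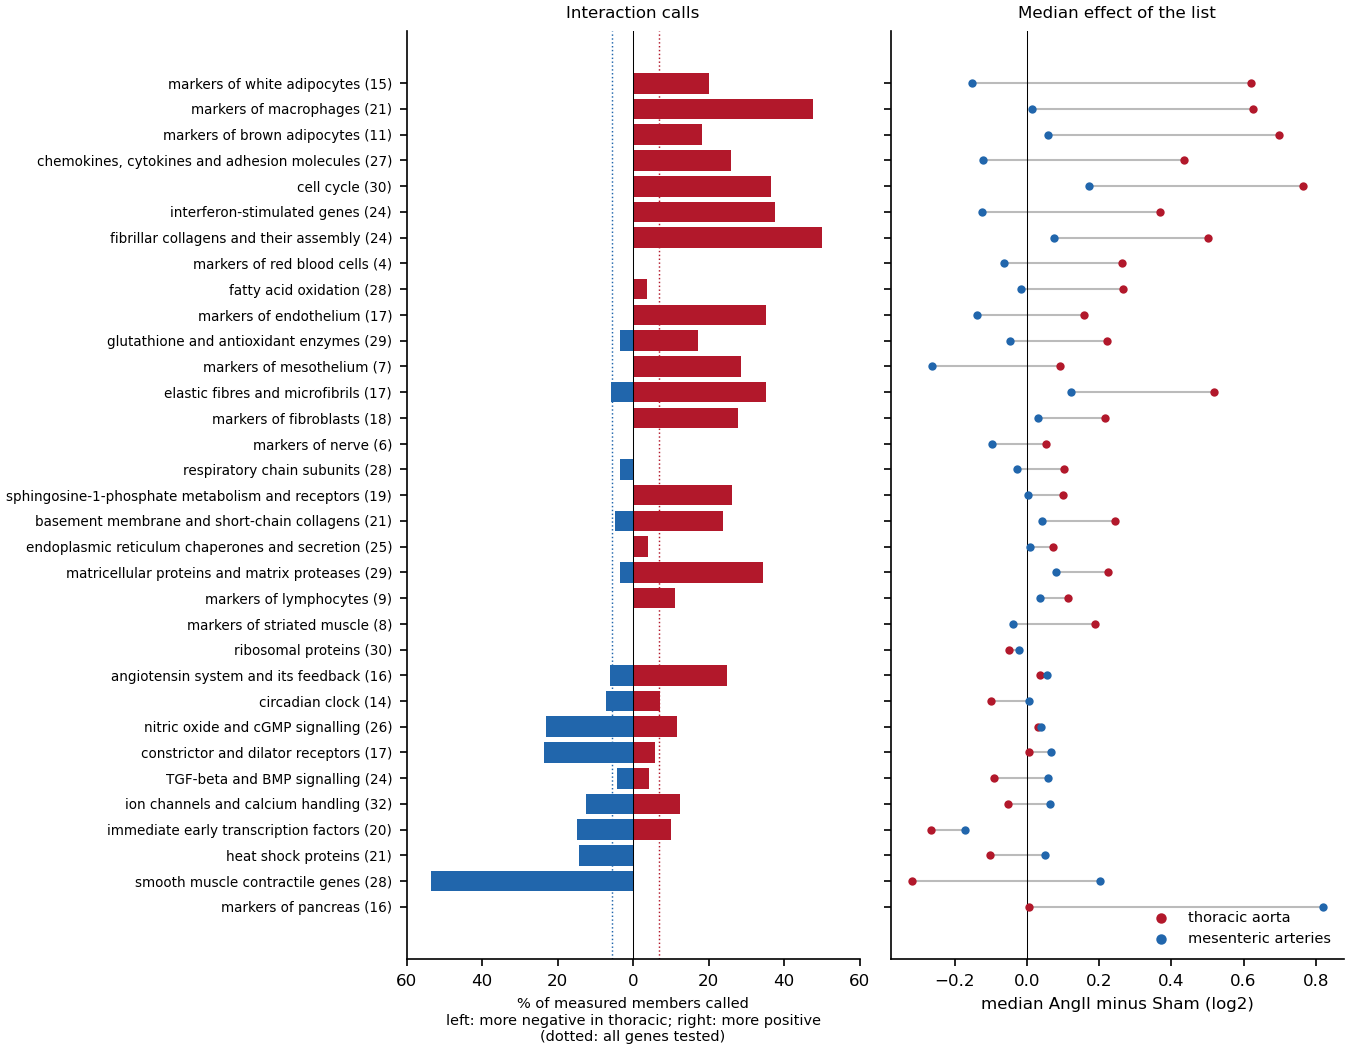
Left, the share of measured members of each gene list (number of genes in brackets) with a called interaction, to the right when more positive in thoracic aorta and to the left when more negative, with dotted lines at the shares of all genes (6.96% and 5.59%). Right, the median AngII minus Sham difference of each list (log2) in each vessel, where the contractile genes lie at -0.32 in thoracic aorta and 0.20 in mesenteric arteries.

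Few thoracic changes could be bounded as like those of mesenteric arteries. Of 1730 genes changed in thoracic aorta, 102 had a 95% interval of the interaction inside -0.5 to 0.5, and 100 of these had a mesenteric effect of the same sign. A small interaction beside a thoracic change leaves little room for another sign, so this count follows largely from the choice. Mfap4 was the first of the 102 by thoracic p. Map7d2, a microtubule-associated protein, rose by 0.51 in thoracic aorta and 0.50 in mesenteric arteries (1 of its 2 probes had the other interaction sign), and Myl4, a myosin light chain, by 0.50 in thoracic aorta and 0.38 in mesenteric arteries. Bace2, a protease, rose by 0.45 in thoracic aorta with a mesenteric effect of 0.21, Erich1 by 0.34 with a mesenteric effect of 0.19, and Fem1b fell by 0.39 with a mesenteric effect of -0.12.

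The AngII effect in abdominal aorta (3 AngII and 3 Sham arrays), which is no part of the interaction, was examined for the same genes. The abdominal arrays shared the normalization, the filter on detected transcripts and the estimate of the spread. Over all genes, 4.01% were higher with AngII in abdominal aorta and 1.46% lower. Of the 762 genes with a more positive thoracic effect, 210 rose in abdominal aorta and 2 fell, with a median abdominal effect of 0.25. Of the 612 with a more negative thoracic effect, 54 fell there and 1 rose, with a median of -0.16. The abdominal effect was above 0 for 85% of the 762 genes and below 0 for 82.5% of the 612, beside 45.8% above 0 and 54.2% below 0 for all genes. The thoracic medians, 0.64 and -0.43, follow in part from the choice of the genes, so the sizes were not compared.

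In both parts of the aorta the opposite genes had smaller median effects than all genes with a differing effect of the same direction. Their thoracic medians were 0.42 and -0.35. The smaller thoracic effects follow in part from the choice of the opposite genes, whose mesenteric effect adds to the interaction. Over all genes, 4.01% rose and 1.46% fell in abdominal aorta. Of 143 that were higher in thoracic aorta, 12 rose in abdominal aorta and 1 fell, with a median of 0.11, and of 186 that were lower, 0 rose and 3 fell, with a median of -0.10. None of the 171 genes whose effect was larger in mesenteric arteries passed in abdominal aorta (limma). The contractile genes had a median abdominal effect of -0.13. Sphk1 rose in abdominal aorta by 0.95 (adjusted p = 0.00081), Srpx by 0.40 (adjusted p = 0.017) and Thy1 by 1.35 (adjusted p = 0.00023), and Gucy1a1 fell by 0.65 (adjusted p = 0.031). Abdominal and thoracic pools may share mice, so the arrays are not known to be independent.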

How the data were processed

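The authors deposited background-subtracted probe intensity values and a detection p-value for each probe of 23 Illumina BeadChip arrays. They also deposited log2 values of the same arrays, made with lumi in R 3.0.2 by robust spline normalization. Intensity columns were matched to groups by their names and numbered within a group.

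Here limma 3.58.1 in R 4.3.3 normalized the intensities of all 23 arrays together (neqc, offset 16), fitted 6 group means and took the interaction, with Benjamini-Hochberg adjustment over the 20585 transcripts that 3 or more arrays detected (detection p under 0.01). The number of arrays limits the precision. A gene is represented by its probe of highest mean signal, and 34885 probes had 1 symbol. "Rose" and "fell" mean an adjusted p under 0.05 in that vessel. "At least N-fold" sets a mean against the dimmest detected signal. The fit was tested on simulated data.

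Genes, lists and comparisons were chosen with earlier results of these data known. Named were 8 genes given at the outset, the largest interactions of each class, genes with an interaction interval inside -0.5 to 0.5, and the members of each list with the smallest interaction p. Other members, namely Acta2, Agtr1a, Cacna1h, Ccl5, Cnn1, Col3a1, Comp, Cxcl16, Fn1, Gstm1, Itga8, Ltbp4, Lyz2, Myh11, Pde5a, Pdlim7, Piezo1, Prkg1, Srf, Tagln and Thbs1, were chosen after their values were seen. The alternatives covered the authors' log2 values, background, normalization, filter, variance model, arrays left out and blocks.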

Additional observations from a re-analysis of the deposited data

Results flagged for a closer look

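AngII acted differently in thoracic aorta and in mesenteric arteries on 2353 transcripts by the test of the difference itself (limma), 1120 of them more positive and 1233 more negative in thoracic aorta. Of these, 572 moved opposite ways and 313 had the larger effect in mesenteric arteries. The interaction was 1.11 for Sphk1, 0.868 for Srpx, -0.74 for Gucy1a1, 0.989 for Thy1 and -0.76 for Gucy1b1, and it passed for 122 of the 132 genes examined by name, a count set largely by their choice, since most were named for the size or the p of this interaction.

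A single array lay far from the others of its group in 13 of 264 sets of values (132 genes in both mesenteric groups), where chance alone gives about 1 in 20, or 13.2. The gap to the nearest array, as a share of the range, was 0.688 for Srpx, whose lowest mesenteric AngII array was array 5, and 0.629 for Thy1, whose highest was array 3. Also in mesenteric AngII arrays, it was 0.868 for Edn1 (array 3 lowest), 0.691 for Bves (array 5 highest), 0.772 for Col3a1 (array 2 lowest), 0.805 for Mfap2 (array 4 lowest) and 0.637 for Cx3cl1 (array 4 lowest). In mesenteric Sham arrays it was 0.73 for Diras2 and 0.738 for Angptl1 (array 2 lowest in both), 0.843 for Sgpl1 (array 3 highest), 0.729 for Cxcl16 (array 3 lowest), 0.76 for Kif23 (array 5 lowest) and 0.781 for Gstm5 (array 2 highest).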

How the results depend on the processing

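Of the 122 named genes with a differing effect, 103 kept their call and all 122 their sign under the alternatives that could be run for them, out of 32 (15 settings and 17 arrays left out in turn). Sizes moved more: on the authors' log2 values 44 of the 122 interactions were over 1.5 times smaller, 30 of these over 2 times, with a median ratio of 1.35 between the sizes. The total of 2353 transcripts was 1955 to 3274 under the 15 settings, the lowest with no filter and the highest with a separate fit for each vessel. The count with the larger effect in mesenteric arteries, 313, was 518 with separate fits, 509 with array quality weights and 470 on the authors' values with the replicate block. Macrophage markers more positive in thoracic aorta numbered 6 with no filter, against 10. Map7d2, with an interaction of 0.0085 on the log2 scale, had -0.0089 with cyclic loess normalization and -0.0082 without the arrays rich in pancreatic transcripts. The cause of these shifts was not tested.

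Leaving out 1 array at a time gave 1607 to 2452 transcripts in all, 817 to 1199 more positive, 790 to 1253 more negative, 411 to 641 opposite and 162 to 379 larger in mesenteric arteries. The lowest counts came without thoracic AngII array 3, except the last, which came without thoracic Sham array 1. Macrophage markers numbered 5 (without thoracic AngII array 1) to 14, contractile genes more negative 12 to 18, contractile genes opposite 6 to 12 and collagens 9 to 13. Map7d2 had -0.042 to 0.050.

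Across the vessels, arrays of the same treatment and replicate number had deviations that correlated at -0.19 to 0.11 (6 pairs of arrays), against -0.15 to 0.17 for 27 pairs of different number. Between AngII and Sham arrays of the same number, r was -0.01 to 0.20 in thoracic aorta (3 pairs) and -0.56 to 0.86 in mesenteric arteries (5 pairs), so some pairs deviated together and others did not, and the numbers were not taken to pair the samples. With the numbers of the column names as a random block (correlation 0.12) 2675 transcripts differed. With the replicate block, on the authors' values, 2561 transcripts differed, against 2419 without it. The slide as a random block was not run, because the files name no slides. Dim probes limit precision, and 122 of the called transcripts were detected on no mesenteric array.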
